A study of Mus musculus with 9 samples.

Results

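Expression of 10 classic glucocorticoid-induced genes was examined in the mouse hippocampus. The genes were Tsc22d3, Zbtb16, Klf9, Klf15, Cebpd, Ddit4, Errfi1, Pdk4, Mertk and Fam107a. They were taken by gene symbol, each symbol matched 1 row, and they are 10 of the 54532 genes listed. There were 9 libraries, 3 in each of 3 groups of wild-type C57BL/6 mice that were labelled male and were 6 to 8 weeks old at purchase. The Con group received a standard diet. For at least 8 weeks the HMD group received a diet rich in methionine, which the body turns into homocysteine. The Bet+HMD group had this diet for 8 weeks, followed by 2 weeks in which its drinking water held 2.5% (w/v) betaine, which can donate a methyl group to homocysteine and so restore methionine. The labels leave it unclear if this group stayed on the diet while it drank betaine. The strain field of the Bet+HMD samples reads C57BL/6, C57BL/7 and C57BL/8, while the growth protocol gives C57BL/6 for all mice.

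Corticosterone, the main glucocorticoid of the mouse, enters cells and binds the glucocorticoid receptor (encoded by Nr3c1) and the mineralocorticoid receptor (encoded by Nr3c2), both of which are abundant in the hippocampus. The bound receptor moves to the nucleus and acts on enhancers and promoters, often at a palindrome of 6-letter sites known as a glucocorticoid response element. The genes it induces include transcription factors, brakes on growth signalling and switches of fuel use, and many of them also answer to other signals such as fasting, hypoxia, cAMP or the circadian clock. No hormone was measured in these files.

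The values were FPKM, that is, reads scaled to gene length and library size, so levels can be set side by side between genes. An earlier table held Con and HMD, and a later table held these 6 libraries again with the 3 Bet+HMD libraries. A library of the earlier table held 16449388 to 18566712 reads in genes, and in the later table there were 16031464 to 18291952 of them. The tables had been scaled separately, so the comparison of HMD with Con used the earlier one, while both comparisons of Bet+HMD used the later one. Since Bet+HMD appeared only in the later table, betaine and anything else that set these libraries apart cannot be told apart. All 5 hippocampus markers were present in every library, at 5.81 FPKM or more, but some differed between groups. In the earlier table Neurod6 was at 80.8 to 89.1 FPKM in Con and 58.0 to 73.9 in HMD. Prox1 went the other way, from 11.1 to 15.8 up to 16.7 to 19.4. In the later table Spink8 was at 15.2 to 21.2 FPKM in HMD and 5.81 to 7.99 in Bet+HMD. The other markers overlapped in these 2 comparisons. The 4 Y-linked genes examined were at 1.097 FPKM or more in every library and Xist was at 0.0449 FPKM or less, as labelled, although the study's methods describe female mice. Levels of the Y-linked Eif2s3y in the later table were 6.36 to 7.20 FPKM in HMD and 16.2 to 17.5 in Bet+HMD. Those of Kdm5d were 1.12 to 1.60 and 2.64 to 2.94, those of Ddx3y 17.8 to 21.2 and 12.7 to 13.8, and Uty overlapped. In bulk tissue, fewer cells of a type and less RNA per cell cannot be told apart.

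All 10 genes were detected well above the counting floor, with 192 (Cebpd) to 10051 (Fam107a) reads per library in the first of these tables and 101 (Cebpd) to 9526 (Fam107a) in the second. In the Con libraries of the later table the order of mean FPKM was Fam107a, Klf9, Ddit4, Tsc22d3, Errfi1, Mertk, Klf15, Zbtb16, Pdk4 and Cebpd, from 129 ± 6.54 (SD, n = 3) for Fam107a to 3.55 ± 0.535 for Cebpd. Neighbours in this order had overlapping libraries for Ddit4 with Tsc22d3 and for Klf15 with Zbtb16. In HMD the order of the first 5 was the same, again with overlapping libraries for Ddit4 and Tsc22d3. Klf15 stood above Mertk, also with overlapping libraries, and Zbtb16, Pdk4 and Cebpd followed. In Bet+HMD the order changed: Mertk was the third, above Ddit4, Tsc22d3, Zbtb16, Errfi1, Klf15, Pdk4 and Cebpd, and only the neighbours Ddit4 and Tsc22d3 overlapped.

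**Figure D1:**
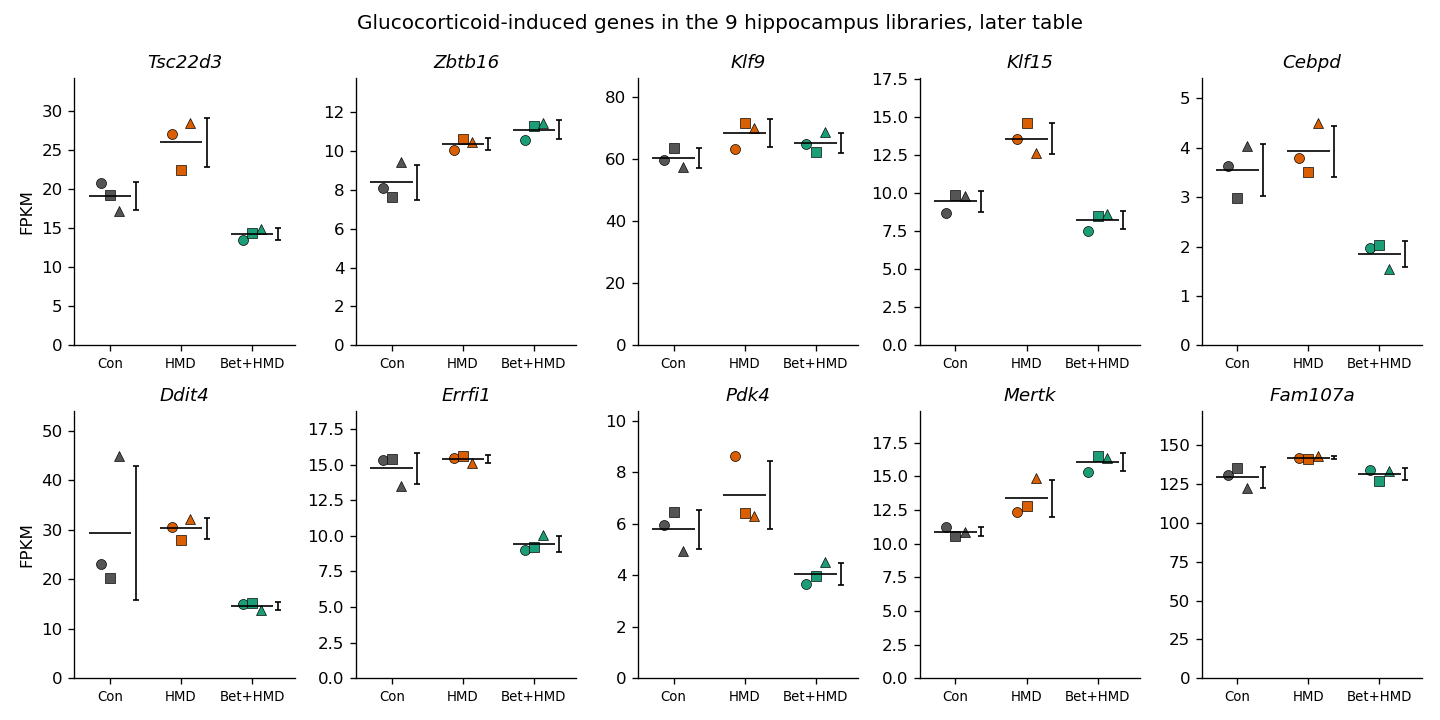
FPKM of the 10 genes in each of the 9 libraries of the later table, with 1 panel per gene and a linear axis from 0. Circles, squares and triangles are replicates 1, 2 and 3 of each group, horizontal lines are group means and error bars are the SD (n = 3). Klf15 lies between 12.6 and 14.6 FPKM in HMD and at 9.90 FPKM or less in the other 6 libraries, while Mertk is higher in every Bet+HMD library than in any other.

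Promoter sequences show how these genes differ in the letters around their start sites. RefSeq promoter windows on GRCm38.p6 (250 bases before and 50 after each start site) matched 8 of the 10 genes with 13 windows, and Zbtb16 and Cebpd were not matched. The motifs searched on both strands were AGAACA, a single site of the glucocorticoid response element; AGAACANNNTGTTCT, the full palindrome; GNACANNNTGTNC, a looser form of it that includes every full palindrome; CACGTG, an E box; and TGACGTCA, a cAMP response element. Of all 32851 windows, 19.0% held AGAACA, 0.00913% the full palindrome, 0.475% the looser form, 7.15% the E box and 1.79% the cAMP response element. Among the 13 windows of these genes, AGAACA was in 3 (2 nearly identical windows of Fam107a and 1 of Tsc22d3), the full palindrome in 0 and the looser form in 2, the Fam107a windows. The E box was in 1, that of Klf15, and the cAMP response element in 1, a window of Errfi1 in which it began at position -51 from the start site. Below are the stretches before the start site for the gene with the largest difference under the diet (Klf15), the only gene with the looser palindrome (Fam107a) and the start site of Tsc22d3 that held a single site, each 5′ to 3′ on the strand of the gene and without bases that lie in an exon of GENCODE M21. Klf15 is chr6:90462326-90462575 on the plus strand with E boxes in capitals, Fam107a is chr14:8309796-8310029 on the minus strand with the looser palindrome in capitals, and Tsc22d3 is chrX:140600660-140600772 on the minus strand with the single site, read on the other strand, in capitals.
Klf15: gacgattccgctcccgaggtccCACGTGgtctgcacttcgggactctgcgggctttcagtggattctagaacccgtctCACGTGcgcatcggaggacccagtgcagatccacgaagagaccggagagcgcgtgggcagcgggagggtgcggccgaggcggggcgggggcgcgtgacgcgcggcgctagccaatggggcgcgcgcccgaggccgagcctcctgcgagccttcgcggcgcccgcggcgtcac
Fam107a: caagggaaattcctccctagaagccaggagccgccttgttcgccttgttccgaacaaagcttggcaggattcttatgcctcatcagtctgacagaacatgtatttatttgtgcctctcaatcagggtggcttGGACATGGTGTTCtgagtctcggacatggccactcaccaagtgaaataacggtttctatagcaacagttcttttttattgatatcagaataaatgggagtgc
Tsc22d3: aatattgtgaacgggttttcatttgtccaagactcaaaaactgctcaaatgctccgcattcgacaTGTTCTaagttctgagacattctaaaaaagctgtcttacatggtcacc
The Klf15 stretch held 2 E boxes, at positions -228 and -172, and another began at position -3 and ran across the start site. Its GC content was 72.0%, against 45.3% for the Fam107a stretch and 38.9% for the Tsc22d3 stretch. The looser palindrome in Fam107a began at position -118 and overlapped a single site at -110, another single site began at -158, and the single site in Tsc22d3 began at position -185. A match describes letters only, and glucocorticoid receptors often bind far from start sites, outside these windows.

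Under the high-methionine diet the mean of each of the 10 genes was higher than in Con, and no gene passed the adjusted threshold. The differences, on the log2(FPKM + 1) scale, ran from 0.07 for Errfi1 to 0.47 for Klf15, and their median was 0.22 against -0.0038 for all 12989 genes tested. Of all genes, 49% had a higher mean in HMD. With limma and Benjamini-Hochberg adjustment, 0 of the 10 genes and 0 of the 12989 (0%) were called at an adjusted p under 0.05, with 592 genes at an unadjusted p under 0.05. A voom fit to the reads recovered from the FPKM also called 0 genes, with 541 at an unadjusted p under 0.05. Klf15, Tsc22d3, Zbtb16 and Mertk, 4 of the 10, were higher at an unadjusted p under 0.05, against 2.36% of all genes, and 2 of the 10 were under it with voom. In 5 of the 10 (these 4 and Fam107a) every HMD library exceeded every Con library, against 4.71% of all genes.

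Among the transcription regulators, Klf15 is a zinc finger factor of amino acid and glucose metabolism (ENSMUSG00000030087, chr6:90462576-90475238, plus strand, GRCm38). It measured 8.65, 9.70 and 9.54 FPKM in the Con libraries 1 to 3 and 13.5, 14.1 and 12.4 in the HMD libraries. The groups did not overlap, and the HMD mean was 1.43 times the Con mean (log2 difference 0.47 ± 0.10 SE, limma unadjusted p = 0.0022, adjusted p = 0.726). This was the 98.2nd percentile of the differences of all genes. Tsc22d3 encodes GILZ, a leucine zipper protein that restrains inflammatory transcription (ENSMUSG00000031431, chrX:140539528-140600659, minus strand). Its levels were 20.5, 19.3 and 16.8 FPKM in Con and 26.8, 21.9 and 28.0 in HMD. The lowest HMD library stood just above the highest Con library, and the difference was 0.42 ± 0.13 (limma adjusted p = 0.98).

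Zbtb16, also called PLZF, is a zinc finger factor that acts mostly as a repressor (ENSMUSG00000066687, chr9:48654297-48836222, minus strand). It was at 7.93, 7.58 and 9.15 FPKM in Con and at 9.92, 10.2 and 10.1 in HMD, where the libraries were close together. The difference was 0.27 ± 0.11 (limma adjusted p = 0.98). Klf9, a zinc finger factor that also answers to thyroid hormone in neurons (ENSMUSG00000033863, chr19:23141226-23166911, plus strand), measured 58.5, 63.4 and 55.8 FPKM in Con and 62.9, 69.7 and 68.7 in HMD. HMD library 1 lay below the highest Con library, and the 95% confidence interval of the difference ran from -0.07 to 0.43. Cebpd, a leucine zipper factor of the acute phase response (ENSMUSG00000071637, chr16:15887286-15891031, plus strand), was the lowest of the 10, at 3.59, 3.06 and 3.94 FPKM in Con and 3.76, 3.51 and 4.41 in HMD. Its groups overlapped, with a difference between -0.18 and 0.41 by the 95% interval.

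Of the genes that restrain growth signalling or switch fuel use, Ddit4 encodes REDD1, an inhibitor of the mTORC1 kinase (ENSMUSG00000020108, chr10:59949669-59951834, minus strand). It was at 23.1, 19.95 and 44.0 FPKM in Con and at 30.5, 27.2 and 32.6 in HMD. Con library 3 stood above every other library, so the difference of 0.13 had a wide 95% interval, from -0.50 to 0.76. It was 0.47 without Con library 3, 0.01 without Con library 1 and -0.09 without Con library 2, and none of these was called. Pdk4, which shuts off the pyruvate dehydrogenase complex and so spares glucose (ENSMUSG00000019577, chr6:5483351-5496309, minus strand), measured 5.82, 6.26 and 4.82 FPKM in Con and 8.59, 6.22 and 6.26 in HMD. Only HMD library 1 stood apart, and without it the difference of 0.27 became 0.13. Errfi1 encodes MIG6, an inhibitor of the EGF receptor (ENSMUSG00000028967, chr4:150853919-150868892, plus strand). Con held 15.1, 15.2 and 13.1 FPKM and HMD 15.4, 15.2 and 14.8, and the 95% interval of the difference, -0.18 to 0.31, included 0.

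Mertk is a receptor tyrosine kinase with which astrocytes and microglia take up synapses and dead cells (ENSMUSG00000014361, chr2:128698956-128802894, plus strand). It was at 11.1, 10.4 and 10.6 FPKM in Con and at 12.2, 12.5 and 14.6 in HMD. The groups did not overlap and HMD library 3 was the highest, with a difference of 0.27 ± 0.11 (limma adjusted p = 0.98). Fam107a encodes DRR1, an actin-binding protein of stressed neurons and of astrocytes (ENSMUSG00000021750, chr14:8296274-8318023, minus strand). It was the most abundant of the 10, at 128, 134 and 119 FPKM in Con and 139.8, 139 and 140.5 in HMD. Every HMD library lay above every Con library, by a small margin, and the 95% interval of the difference was -0.10 to 0.38.

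Markers of other tissue moved with the same contrast. The summed FPKM of 5 thalamus markers was 12.5 to 17.3 in Con and 73.0, 24.1 and 31.2 in HMD libraries 1 to 3, and all 4 tested were higher in every HMD library. Prkcd, a defining gene of the thalamus, was at 3.25 to 5.48 FPKM in Con and 6.71 to 20.2 in HMD, and no marker of the list was at 0. Summed blood markers ran from 98.0 to 147.5 FPKM in Con and from 146.8 to 229.6 in HMD, so the groups overlapped, and 2 of the 5 were higher in every HMD library. Astrocyte markers overlapped between the groups, with sums of 513 to 660 FPKM in Con and 542 to 662 in HMD. The median difference of the 10 genes was 0.18 without HMD library 1, the library with the most thalamus signal, against 0.22 with it. Leaving out each library in turn gave medians of 0.178 to 0.231. The part of added thalamus or blood in the difference was not tested.

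The other genes of the pathway are a list of 20 further glucocorticoid-induced genes, none of them among the 10. All 20 were tested between HMD and Con, 0 were called, and their median difference was 0.58. This list, like the 10 genes, was chosen with earlier results of these data known, so its values are no independent evidence. The mean was higher in HMD in 16 of the 20, against 49% of all genes. Every HMD library exceeded every Con library in 13, against 4.71% of all genes. The opposite held for 1, Dusp1 (named after its values were seen). The smallest p-values were those of Cdkn1a, an inhibitor of the cell cycle, Sgk1, a kinase of ion transport, and Arrdc2, an arrestin-like protein. Cdkn1a was at 2.92, 2.96 and 3.12 FPKM in Con and 11.2, 7.45 and 8.47 in HMD (log2 difference 1.31, limma adjusted p = 0.186). Sgk1 measured 25.2, 29.3 and 24.0 FPKM in Con and 53.4, 46.7 and 47.4 in HMD (0.89, limma adjusted p = 0.218). Arrdc2 was at 3.00, 2.61 and 3.94 FPKM in Con and 7.64, 6.95 and 7.64 in HMD (1.02, limma adjusted p = 0.218). When all 9 libraries of the later table shared one estimate of the spread, Arrdc2, Cdkn1a, Fkbp5, Plin4 and Sgk1 were called higher in HMD, with limma adjusted p-values of 0.0219 to 0.0481, among 9 genes in all and still 0 of the 10. Fkbp5 and Plin4 are named here after their values were seen. The receptors themselves were measured as well. Nr3c1 was at 15.2, 20.4 and 15.1 FPKM in Con and 13.6, 14.2 and 14.0 in HMD (limma adjusted p = 0.98), so that its HMD libraries all lay below Con. Nr3c2 was at 33.8, 38.2 and 31.3 FPKM in Con and 28.0, 33.6 and 27.3 in HMD, and the groups overlapped.

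**Figure D2:**
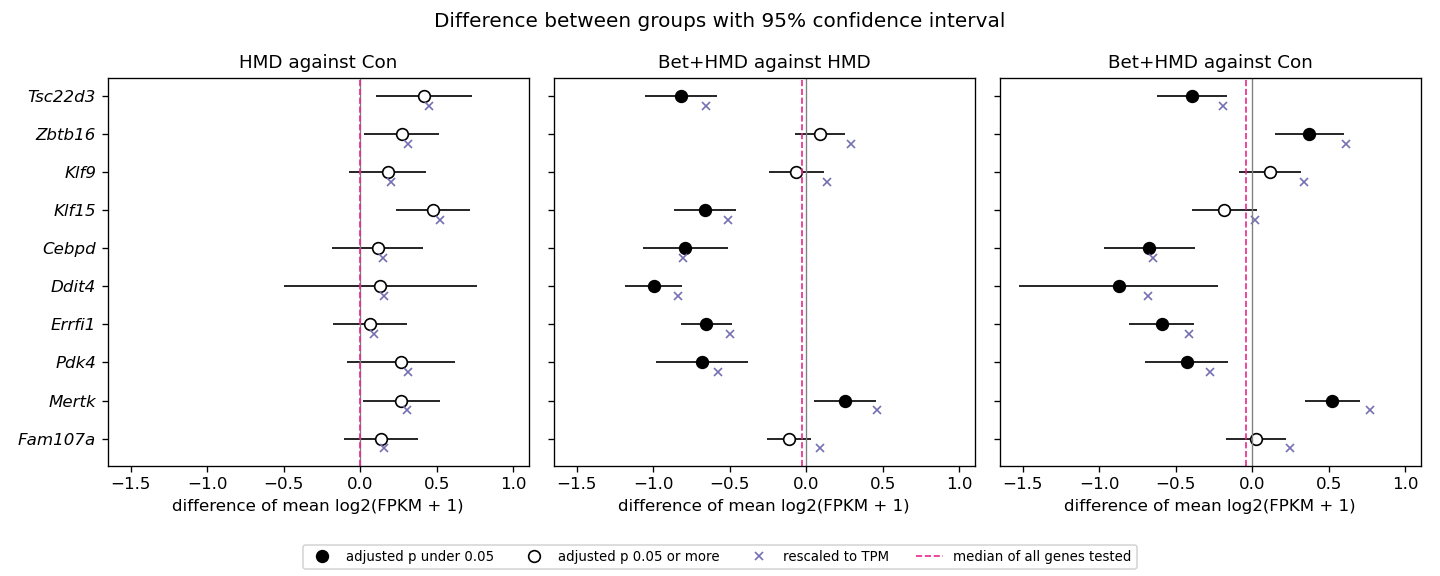
Differences of mean log2(FPKM + 1) for the 10 genes in the 3 comparisons. Bars are 95% confidence intervals of limma, filled points have an adjusted p under 0.05, crosses give the difference after rescaling each library to TPM, and the dashed line is the median of all genes tested. All 10 points lie above 0 and none is filled for HMD against Con, and 6 filled points lie below 0 and 1 above it for Bet+HMD against HMD.

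In Bet+HMD, 6 of the 10 genes were lower than in HMD and 1 was higher. Ddit4, Tsc22d3, Cebpd, Pdk4, Klf15 and Errfi1 fell to between 0.471 and 0.612 of the HMD mean, Mertk rose to 1.203 times it, and Zbtb16, Klf9 and Fam107a did not pass the test. The median difference of the 10 was -0.66, against -0.03 for all 13672 genes tested. Calls were frequent in this contrast: of all genes limma called 48.3% by the adjusted p, with 22.8% higher and 25.5% lower, and voom on the recovered reads called 6798. This comparison shares its HMD libraries with the one above. In 7 of the 10 genes (the 6 that fell and Fam107a) every Bet+HMD library lay below every HMD library, against 31.8% of all genes, and in 1, Mertk, every one lay above, against 28.3%.

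Rescaling each library to a common sum (TPM) bears on these calls, because the FPKM of a Bet+HMD library summed to 249135 to 258514 and that of an HMD library to 289606 to 292361. The Bet+HMD libraries of the later table also had more genes with a read, 25315 to 25663, against 20960 to 22502 in HMD and 20816 to 23272 in Con, and the part of this in the differences of the 10 genes was not tested. TPM moved the median difference of all genes from -0.03 to 0.16, and the calls of all genes from 3118 higher and 3489 lower to 4496 higher and 1974 lower (3933 and 2865 with voom). Under TPM the same contrast had 6 of the 10 genes lower and 2 higher. Klf9 and Fam107a, whose differences were -0.06 and -0.11, were at 0.13 and 0.09 with TPM, and were called higher with quantile normalization (0.29 and 0.27, limma adjusted p = 0.0145 and 0.00584), so no direction is given for either. Ddit4, Tsc22d3, Cebpd, Pdk4, Klf15 and Errfi1 were each called lower under all alternatives run, every scaling and every library left out included, except that the filter at 5 FPKM removed Cebpd.

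Ddit4 was at 30.6, 28.0 and 32.2 FPKM in the HMD libraries of the later table and at 15.0, 15.2 and 13.7 in Bet+HMD, a difference of -0.999 ± 0.08 (limma adjusted p = 0.000144). Tsc22d3 went from 27.0, 22.5 and 28.5 FPKM in HMD to 13.4, 14.4 and 15.0 in Bet+HMD (-0.82 ± 0.10, limma adjusted p = 0.000711). The Bet+HMD libraries of both genes lay close together, far below the lowest HMD library. Cebpd had 3.79, 3.50 and 4.50 FPKM in HMD and 1.97, 2.04 and 1.55 in Bet+HMD (-0.79 ± 0.12, limma adjusted p = 0.00162), which rests on 101 to 135 reads per Bet+HMD library. Klf15 measured 13.5, 14.6 and 12.6 FPKM in HMD and 7.55, 8.49 and 8.66 in Bet+HMD (-0.66 ± 0.09, limma adjusted p = 0.000889). So the regulators Tsc22d3, Cebpd and Klf15 fell, whereas Zbtb16 and Klf9, did not pass the test.

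Errfi1 was uniform within each group, at 15.5, 15.6 and 15.1 FPKM in HMD and at 9.00, 9.22 and 10.1 in Bet+HMD (-0.65 ± 0.07, limma adjusted p = 0.000441). Pdk4 was at 8.64, 6.43 and 6.31 FPKM in HMD and at 3.66, 3.96 and 4.50 in Bet+HMD (-0.68 ± 0.13, limma adjusted p = 0.0044). Its call did not rest on HMD library 1, without which the difference was -0.55 (limma adjusted p = 0.00802). Mertk moved the other way, from 12.4, 12.8 and 14.9 FPKM in HMD to 15.3, 16.5 and 16.4 in Bet+HMD (0.25 ± 0.09, limma adjusted p = 0.0463). That call was lost when HMD library 1 or 2 or any 1 of the 3 Bet+HMD libraries was left out, with limma adjusted p-values of 0.0813 to 0.145.

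Zbtb16 was at 10.03, 10.6 and 10.4 FPKM in HMD and 10.6, 11.3 and 11.4 in Bet+HMD, overlapping, with a 95% interval of the difference from -0.07 to 0.25. Of the alternatives run, TPM alone called it higher (limma adjusted p = 0.0202). Klf9 measured 63.3, 71.7 and 70.2 FPKM in HMD and 64.8, 62.3 and 68.8 in Bet+HMD, with an interval from -0.25 to 0.12. Fam107a was at 141.7, 141 and 143 FPKM in HMD and 134, 127 and 133 in Bet+HMD, lower in every library as deposited, with an interval from -0.26 to 0.03. All 3 had a mean FPKM in Bet+HMD above that of Con.

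The size of a gene moved with this contrast across the genome. Among protein-coding genes of at most 5 kb of genomic span the median difference between Bet+HMD and HMD was -0.31, with 44.2% called lower. It was -0.12 for 5 to 10 kb, -0.06 for 10 to 20 kb, -0.03 for 20 to 50 kb, -0.01 for 50 to 100 kb and 0.0028 above 100 kb. Ddit4 and Cebpd span 2.17 and 3.75 kb, Klf15, Pdk4 and Errfi1 span 12.7 to 15.0 kb, and Fam107a and Klf9 span 21.8 and 25.7 kb. Tsc22d3 spans 61.1 kb, and Mertk and Zbtb16, the 2 with a higher mean in Bet+HMD, span 104 and 182 kb. When each library was centred within classes of span, Ddit4 kept a difference of -0.96, Tsc22d3 -0.82, Cebpd -0.75, Pdk4 -0.64, Klf15 -0.62 and Errfi1 -0.62, and all 6 were called. Mertk, at 0.24, was not (limma adjusted p = 0.0883). Of all 13672 genes, this centring called 3350 lower and 3374 higher. Centring within classes of exonic length gave -0.75 for Ddit4, -0.79 for Tsc22d3 and -0.50 for Klf15, with the same 6 genes called lower and Mertk called higher. Of all genes, it called 3242 lower and 3333 higher.

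**Figure D3:**
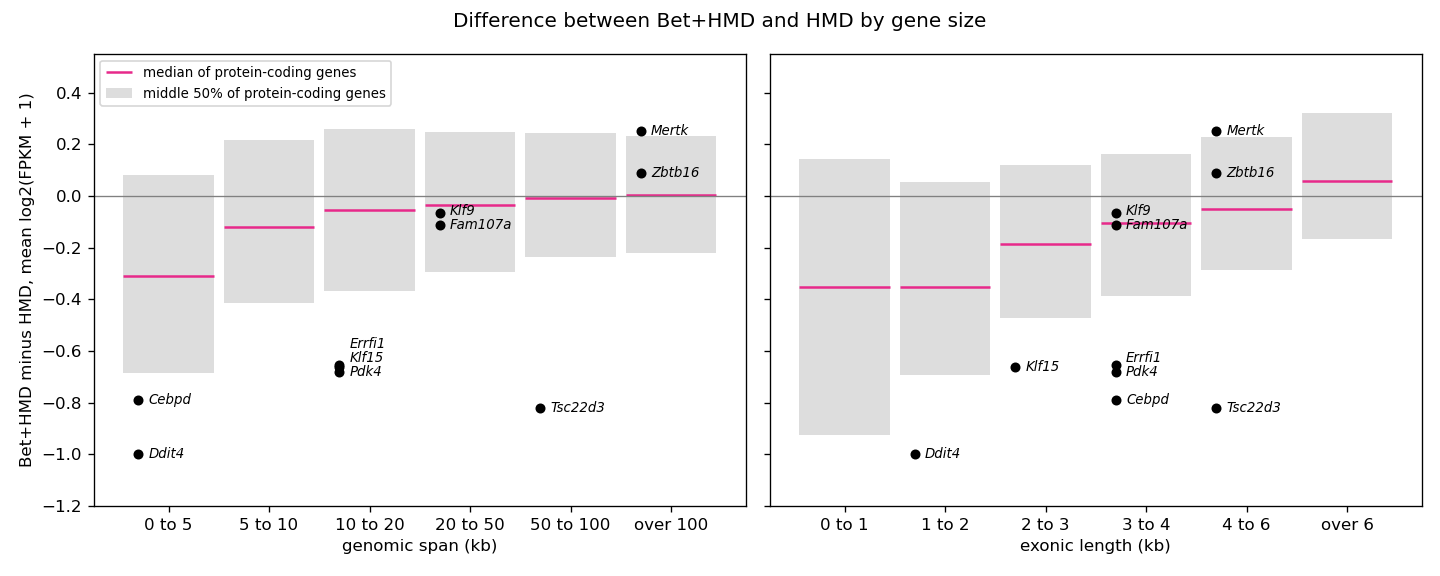
Difference of mean log2(FPKM + 1) between Bet+HMD and HMD by genomic span (left) and exonic length (right), in kb. Grey boxes hold the middle 50% of the protein-coding genes of a class, pink lines are their medians and points are the 10 genes. Tsc22d3, Pdk4, Klf15, Errfi1, Cebpd and Ddit4 lie below the box of their class in the left panel, and the medians of the classes rise from -0.31 to 0.0028 with span.

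Among the 20 further glucocorticoid-induced genes, 19 were tested between Bet+HMD and HMD, 13 were lower and 2 higher, and their median difference was -0.75. Of all genes, 25.5% were called lower and 22.8% higher. The 3 largest called differences were those of Mt2, a metallothionein that binds zinc, Cdkn1a, and Rasd1, a small GTPase induced by dexamethasone. Mt2 went from 13.8, 13.4 and 11.5 FPKM in HMD to 2.94, 2.79 and 1.17 in Bet+HMD (-2.12, limma adjusted p = 0.000404). Cdkn1a was at 11.2, 7.42 and 8.40 FPKM in HMD and 2.56, 2.96 and 2.65 in Bet+HMD (-1.41, limma adjusted p = 0.000318). Rasd1 was at 28.1, 30.2 and 37.2 FPKM in HMD and 13.1, 12.0 and 11.4 in Bet+HMD (-1.31, limma adjusted p = 0.000201). Each of the 3 had lower values in every Bet+HMD library.

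Of 10 receptor, enzyme and chaperone genes tested, 7 were lower and 2 higher in Bet+HMD than in HMD, against 25.5% and 22.8% of all genes. Under TPM 1 was lower and 2 higher, against 1974 lower and 4496 higher of all 13672 genes tested. Nr3c1 was at 13.9, 14.7 and 14.2 FPKM in HMD and rose to 17.7, 15.9 and 18.4 in Bet+HMD (0.26, limma adjusted p = 0.0267). Nr3c2 was at 28.3, 34.5 and 27.7 FPKM in HMD and 23.8, 23.9 and 24.6 in Bet+HMD (-0.31, limma adjusted p = 0.0325), a call that TPM ended (limma adjusted p = 0.364). Of 12 clock genes, several of which glucocorticoids also drive, 5 were higher and 0 lower, against 22.8% and 25.5% of all genes. Thalamus markers summed to 24.97 to 74.0 FPKM in HMD and 21.6 to 21.9 in Bet+HMD, blood markers to 149 to 233 and 72.2 to 122, and astrocyte markers to 551 to 679 and 586 to 613. Of 7 astrocyte markers, 2 were called lower and 0 higher. As deposited, sums of endothelium (52.5 to 59.6 and 43.2 to 45.9) and oligodendrocyte markers (749 to 998 and 714 to 721) did not overlap. Nor did those of neuron markers (611 to 706 and 572 to 586). The median differences of these lists were -0.163, -0.317 and -0.145, and under TPM 0.0248, -0.118 and 0.0545. Of 4 neuron markers, 1 was called higher and 1 lower. Sums of microglia markers overlapped (60.3 to 71.9 and 59.7 to 63.4). The part of these marker differences in the differences of the 10 genes was not tested.

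**Figure D4:**
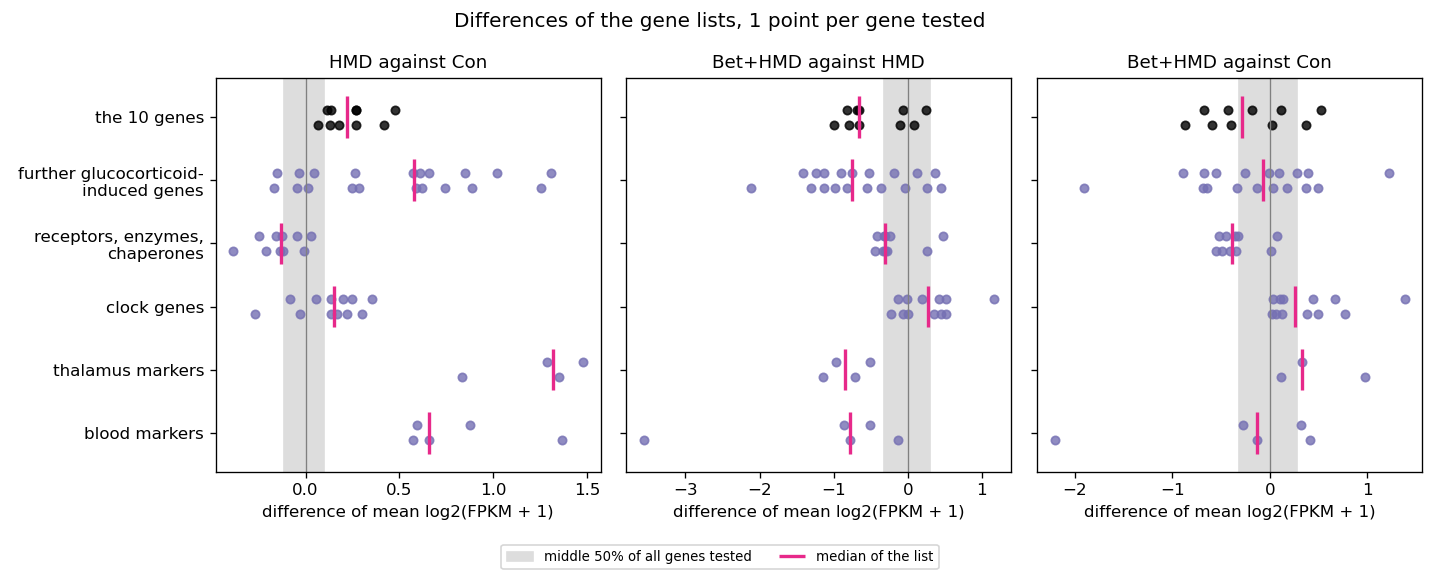
Differences of mean log2(FPKM + 1) for each tested gene of 6 lists in the 3 comparisons, whose horizontal axes differ in range. Grey bands hold the middle 50% of all genes tested and pink lines are the medians of the lists. The 10 genes have medians of 0.22, -0.66 and -0.29, and the 20 further glucocorticoid-induced genes 0.58, -0.75 and -0.07, with 20, 19 and 18 of them tested.

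Set directly against Con, Bet+HMD had 5 of the 10 genes lower and 2 higher. Ddit4, Cebpd, Errfi1, Pdk4 and Tsc22d3 were lower, at 0.498 to 0.747 of the Con mean, and Mertk and Zbtb16 were higher, at 1.48 and 1.32 times it. Klf15, Klf9 and Fam107a did not pass the test. The median difference of the 10 was -0.29, against -0.04 for the 13643 genes tested. The calls took 39.7% of all genes, with 19.4% higher and 20.4% lower, and voom called 5511. Every Bet+HMD library was below every Con library in 6 of the 10 genes, against 29% of all genes, and above in 2, against 26.1%. This comparison shares its Bet+HMD libraries with the one against HMD.

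Cebpd had 3.63, 2.98 and 4.04 FPKM in the Con libraries of the later table (difference from Con -0.67 ± 0.13, limma adjusted p = 0.00648). Errfi1 was at 15.4, 15.4 and 13.5 FPKM in Con (-0.59 ± 0.09, limma adjusted p = 0.00283). Mertk measured 11.2, 10.5 and 10.9 FPKM in Con (0.52 ± 0.08, limma adjusted p = 0.00245). These 3 genes, lower, lower and higher in Bet+HMD, were called under all alternatives run, except that the filter at 5 FPKM removed Cebpd.

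For the other 4 called genes the call depended on the setting. Ddit4 was at 23.1, 20.2 and 44.9 FPKM in Con, so that the difference of -0.87 (limma adjusted p = 0.042) became -0.53 without Con library 3 (limma adjusted p = 0.00523). Leaving out Con library 1 or any Bet+HMD library gave it adjusted p-values of 0.0612 to 0.119 with limma. The call was also lost under TPM (limma adjusted p = 0.109), quantile normalization, voom, centring by exonic length, no filter and the replicate block, with 0.054 to 0.109. Tsc22d3 had 20.8, 19.3 and 17.2 FPKM in Con (-0.39 ± 0.10, limma adjusted p = 0.017), and was not called without Bet+HMD library 1 or 2 or under TPM (limma adjusted p = 0.0775, 0.0661 and 0.185). The replicate block also lost it, and 9 of the 12 alternatives other than left-out libraries called it. Pdk4 was at 5.97, 6.45 and 4.96 FPKM in Con (-0.43 ± 0.11, limma adjusted p = 0.0243), and lost the call without Con library 1 or 2 or Bet+HMD library 1 or 2, with 0.0517 to 0.0936. Its call was also lost under TPM, with centring by span or exonic length (limma adjusted p = 0.125, 0.0586 and 0.0833) and with the replicate block. Of the 11 alternatives other than left-out libraries, 6 called it. Zbtb16 had 8.07, 7.65 and 9.41 FPKM in Con (0.37 ± 0.10, limma adjusted p = 0.021), and lost the call without Con library 1 or any Bet+HMD library, with 0.0566 to 0.0846. Centring by span (limma adjusted p = 0.0678) and the replicate block lost it as well. Under TPM, 4 of the 10 genes were higher and 2 lower, and the calls of all genes moved from 2645 higher and 2777 lower to 3980 and 1432 (3289 and 2222 with voom).

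Klf15, the gene with the largest difference under the diet, had 8.70, 9.90 and 9.82 FPKM in Con, just above the Bet+HMD libraries (-0.18, 95% interval -0.40 to 0.03, limma adjusted p = 0.154), and was at 0.02 under TPM. Klf9 measured 59.6, 63.8 and 57.4 FPKM in Con and overlapped Bet+HMD, with an interval of -0.09 to 0.32. Fam107a was at 130.5, 135 and 122 FPKM in Con, also overlapping, with an interval of -0.17 to 0.22. Klf9 and Fam107a were called higher in Bet+HMD under TPM, with limma adjusted p-values of 0.0182 and 0.0428, and with quantile normalization (0.00702 and 0.0093). By genomic span, the median difference of protein-coding genes from Con ran from -0.39 at 5 kb or less to 0.04 above 100 kb. Centring within those classes left 4 of the 10 genes lower (Ddit4, Tsc22d3, Cebpd and Errfi1) and 1 higher (Mertk). Of all 13643 genes, the same centring called 2565 lower and 2847 higher.

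Of the further glucocorticoid-induced genes, 18 were tested against Con, and 7 were lower and 3 higher in Bet+HMD, against 20.4% and 19.4% of all genes. Under TPM 6 were lower and 5 higher, against 1432 lower and 3980 higher of all 13643 genes tested. The median of the list, -0.07 as deposited, was then 0.12, against 0.168 for all genes. The largest called differences were those of Mt2 (-1.91, limma adjusted p = 0.00285), Plin4, a lipid droplet coat protein (1.22, limma adjusted p = 0.000757), and Mt1, a second metallothionein (-0.89, limma adjusted p = 0.00472). Plin4 was at 0.919, 0.801 and 1.35 FPKM in Con and 3.46, 3.75 and 3.83 in Bet+HMD, and Mt1 at 203, 215 and 198 in Con and 128, 120.1 and 86.6 in Bet+HMD. Nr3c1 overlapped between these groups, at 15.6, 20.7 and 15.6 FPKM in Con. Nr3c2, at 34.6, 38.6 and 32.1 FPKM in Con, was lower in every Bet+HMD library (-0.52, limma adjusted p = 0.00507; under TPM 0.0258).

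Over the 6 libraries of the earlier table, the mean z score of the 10 genes was -0.556, -0.588 and -0.73 in Con and 0.645, 0.415 and 0.814 in HMD. Among the other genes tested there, the 5 with the highest Pearson correlation with this score were Chil1 (r = 0.989), Elac1 (0.984), Gm43737 (0.98), Spsb1 (0.978) and Gm44718 (0.977). The 6 points share their diet groups and are too few for a ranking of this kind to be read closely. Chil1, a secreted chitinase-like protein of astrocytes, went from 2.07 ± 0.0569 FPKM (SD, n = 3) under the standard diet to 3.05 ± 0.245 under the methionine diet, and Spsb1, an adaptor of ubiquitin ligases, from 4.49 ± 0.30 to 8.08 ± 0.60.

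A few of the 10 genes overlap others, and although the library kit marked the strand, the strand setting of the read counting was not given in the sources used here. Errfi1 overlaps the antisense gene 1700045H11Rik and Mertk the antisense gene Gm14011, which were at 0 and at most 0.374 FPKM, and Cebpd overlaps Spidr on the other strand, at 0.33 to 0.705 FPKM. How far reads shared with the overlapping genes changed the levels of these 3 genes was not tested. Klf9 and Mertk also contain a microRNA and a small nucleolar RNA gene on their own strand.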

How the data were processed

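Total RNA of mouse hippocampus was sequenced in 9 libraries. Per the labels, the authors used HISAT2 2.1.0 and featureCounts 1.5.0-p3 with build mm10, and per the study's methods ribosomal RNA was depleted. The study's methods give other tool versions. Values were deposited by the authors as FPKM in an earlier and a later table, with gene length in bases (another unit) and position. Of 54409 genes found in GENCODE M21, 98.3% had the same position on GRCm38. The listed position of Klf9 differs. The library size was inferred from the values, by fitting FPKM times length to whole numbers of reads from the smallest values upward. With this size, 100% of the values came to whole reads (within 0.05). Intervals cover spread between libraries, not PCR duplication.

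Groups came from sample titles, and all columns were matched (COL was read as Con by inference). The main test was limma 3.58.1 (R 4.3.3) with an intensity trend on log2(FPKM + 1), for genes with a mean of at least 1 FPKM, two-sided, adjusted by Benjamini-Hochberg over all genes tested. The study's methods use a count tool; limma on the log scale was the main test here because the deposited values were FPKM, and the recovered reads entered only an alternative. A difference on this scale understates the change of low genes. The labels do not say whether the libraries of a group came from separate mice, and p-values measure only the spread between these samples, which may be technical. The fit was tested on simulated data.

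The 10 genes and all lists were chosen with earlier results of these data known. Named besides the 10 were, per comparison, the 3 of the further list with the largest called difference (with none called, the smallest p), Nr3c1, Nr3c2, the 5 genes most correlated with the 10, and list genes used as checks. Alternatives were another pseudocount (0.1), no filter, a filter at 5 FPKM, TPM, quantile normalization, median centring, no trend, all groups in one fit, limma voom with recovered reads, use of the later table for HMD against Con, a replicate block and each library left out. Centring within classes of span or length, and all groups in one fit with the later table for HMD against Con, were added after seeing the data. Sequences came from RefSeq (GRCm38.p6).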

Additional observations from a re-analysis of the deposited data

How the results depend on the processing

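For HMD against Con, 0 of the 10 genes were called under every alternative run. Their median difference of 0.222 was 0.267 with a filter at 5 FPKM and 0.178 to 0.231 with 1 library left out. All genes called numbered 0 to 2 with 1 library left out, and 9, with 5 of the further list, when all 3 groups of the later table were fitted together. Ddit4 ran from -0.0855 (without Con library 2) to 0.466. For Bet+HMD against HMD, the median of -0.658 was -0.711 with a pseudocount of 0.1, -0.505 under TPM, -0.577 with quantile normalization, -0.526 with centring by exonic length and -0.697 to -0.601 with 1 library left out, and 4166 genes were called with the filter at 5 FPKM, against 6607. The difference of Klf9 reversed to 0.134 under TPM, 0.292 with quantile normalization, 0.0271 with voom and 0.0382 with centring by exonic length, and Fam107a to 0.088 under TPM and 0.271 with quantile normalization. For Bet+HMD against Con, the median of -0.288 was -0.0782 with the filter at 5 FPKM, which removed 2 genes, -0.0873 under TPM, -0.183 with quantile normalization, -0.223 with voom and -0.15 with centring by exonic length. Of the 10 genes, 3 to 7 were called with 1 library left out, and of all genes 3302 to 6269, and 3260 with the filter at 5 FPKM, against 5422. Klf15 reversed to 0.0188 under TPM and 0.008 with centring by exonic length, and Fam107a ran from -0.0141 (without Con library 3) to 0.0578. Where no value shows it, the cause was not tested.

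The titles number replicates 1 to 3, but no label ties same-numbered libraries to 1 mouse or cage, and deviations of same-numbered libraries correlated between -0.176 and 0.346. With the replicate block, 3 of the 10 genes were called for Bet+HMD against Con (Errfi1, Mertk and Cebpd), 6 for Bet+HMD against HMD, without Mertk (limma adjusted p = 0.0797), and 0 for HMD against Con. Of all genes it called 3924, 5615 and 0.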
